A study of Homo sapiens with 12 samples.

Results

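The genes described here encode the enzymes and the chaperone that modify newly made collagen chains and cross-link collagen outside the cell. They are P4HA1, P4HA2 and P4HA3 (the catalytic subunits of collagen prolyl 4-hydroxylase), PLOD1, PLOD2 and PLOD3 (lysyl hydroxylases), SERPINH1 (the collagen chaperone HSP47), and LOX, LOXL1 and LOXL2 (lysyl oxidases). These 10 genes were chosen by symbol from the 25702 genes of the count table. All 10 passed the filter of at least 10 cpm (counts scaled to library size and composition) in at least 6 of the 12 libraries, as did 9490 genes in all. P4HA3 passed in exactly 6 libraries, all 3 of D1+ TGF-β and the flasks of D1 and D20+ TGF-β where it was high, so it entered the tests through those flasks. It is also absent from the table of log2 values that the authors deposited, and was named by its Entrez identifier through RefSeq.

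WI-38, a line of normal human lung fibroblasts, was kept in low-glucose medium with foetal bovine serum, either with 2 ng/mL TGF-β from confluence on or without it. RNA was taken after 1 day (D1 and D1+ TGF-β, passages 2 to 3) or after 20 days (D20 and D20+ TGF-β, passages 5 to 6), and of 5 RNAs per condition 3 were sequenced. The D20 flasks of each treatment were all seeded from 1 flask, so the p-values measure the spread between flasks. On day 20 the effect of TGF-β therefore cannot be told apart from a difference between the seeding flasks. Nor can the effect of the day be told apart from those of passage, reseeding and cell density. Fold changes come from edgeR's quasi-likelihood fit over all 12 libraries, given on the log2 scale with their standard error (SE), and a gene is called higher or lower where its Benjamini-Hochberg adjusted p was under 0.01. The comparisons are those of TGF-β on each day, of the untreated flasks of both days (D20 vs D1), and of the treated flasks of day 20 with those of day 1, called over time with TGF-β.

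Collagen chains are hydroxylated in the endoplasmic reticulum before they fold. Prolyl 4-hydroxylase makes the hydroxyproline that holds the triple helix together at body temperature, and lysyl hydroxylases make the hydroxylysine that carries sugars and shapes later cross-links. HSP47 binds the folded triple helix on its way to the Golgi, and lysyl oxidases then oxidize lysine and hydroxylysine in the secreted molecules, from which covalent cross-links form. PLOD2 hydroxylates lysines of the collagen telopeptides, and the cross-links that follow are known from stiff, fibrotic tissue. Fibroblasts are the main source of fibrillar collagen in the lung. P4HA1, P4HA2, PLOD2 and LOX are known targets of both TGF-β and the hypoxia-inducible factors.

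The libraries held between 8674488 and 18286197 counts. In 2 conditions 1 flask was unlike the others, replicate 2 of D1 and replicate 3 of D20+ TGF-β. Counts of pairs of flasks within a condition gave a chi-square per degree of freedom of 33.8 and 36.2 for the pairs with D1 replicate 2 and of 19.1 and 26.5 for those with D20+ TGF-β replicate 3, against 1.78 to 12.9 for the other pairs. Counts of calls are given without them as well where they differ by more than 1.5 times. Leaving both out was a choice made after seeing the data. Shares of all genes are those with all 12 libraries, so counts without both cannot be set against them. The 8 fibroblast markers summed to between 13426 and 22066 cpm per flask. The 10 epithelial, endothelial and immune markers summed to 7.05 to 7.68 cpm in the D20 flasks, most of it CD14 (5.34, 5.82 and 6.19 cpm), and to 0.669 to 2.64 cpm elsewhere, and KRT5, CDH5 and CD3E were at 0 in all 12 libraries. The part of other cells in the D20 levels was not tested. The 5 contractile markers of myofibroblasts summed to 4838 to 5370 cpm at D1+ TGF-β and to 2349 to 2655 cpm at D20+ TGF-β, beside 1859 to 2601 cpm without TGF-β on day 1 and 2733 to 2844 cpm on day 20. The smooth muscle actin gene ACTA2 rose at D1+ TGF-β (log2 fold change 2.07, edgeR adjusted p = 2.28e-06) and was not called at D20+ TGF-β (log2 fold change 0.13, edgeR adjusted p = 0.554).

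The promoters of P4HA1, P4HA2, PLOD2 and LOX are shown because these 4 genes had the largest called rises after 1 day of TGF-β and a smaller response at day 20. Each sequence is the 250 bases before the annotated start in RefSeq (GRCh38.p14, coordinates in that build), written 5′ to 3′ on the strand of the gene. Capitals mark the core of the hypoxia response element, searched as ACGTG and GCGTG on both strands. For LOX, the most upstream of 3 listed starts is shown.
P4HA1 (chr10:73096867-73097116, minus strand): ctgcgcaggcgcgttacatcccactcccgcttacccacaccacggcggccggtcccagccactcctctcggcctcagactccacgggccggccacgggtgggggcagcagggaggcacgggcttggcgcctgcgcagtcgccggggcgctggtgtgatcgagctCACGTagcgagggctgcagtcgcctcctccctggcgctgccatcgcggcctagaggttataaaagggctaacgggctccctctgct
P4HA2 (chr5:132227092-132227341, minus strand): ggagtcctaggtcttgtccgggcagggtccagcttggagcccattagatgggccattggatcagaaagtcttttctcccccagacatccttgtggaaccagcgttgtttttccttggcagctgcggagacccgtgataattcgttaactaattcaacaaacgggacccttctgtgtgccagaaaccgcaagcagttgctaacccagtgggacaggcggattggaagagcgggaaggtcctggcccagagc
PLOD2 (chr3:146161185-146161434, minus strand): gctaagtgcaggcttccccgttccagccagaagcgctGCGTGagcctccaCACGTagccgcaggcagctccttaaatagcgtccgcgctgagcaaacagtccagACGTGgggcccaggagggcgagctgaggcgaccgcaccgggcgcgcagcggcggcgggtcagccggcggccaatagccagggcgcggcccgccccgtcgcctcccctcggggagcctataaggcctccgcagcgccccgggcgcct
LOX (chr5:122078260-122078509, minus strand): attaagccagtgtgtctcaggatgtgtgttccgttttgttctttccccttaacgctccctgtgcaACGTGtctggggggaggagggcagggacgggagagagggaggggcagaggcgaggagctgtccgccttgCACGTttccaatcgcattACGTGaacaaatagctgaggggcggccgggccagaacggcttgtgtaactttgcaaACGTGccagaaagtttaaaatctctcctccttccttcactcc

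The LOX promoter held 4 of these cores, PLOD2 had 3 and P4HA1 had 1, at base −86 counted from the start, while P4HA2 had 0 in this window. The table listed 11 promoters for 8 of the 10 genes, and none for P4HA3 and LOXL2. PLOD1 (2 cores) and 1 of the 2 SERPINH1 promoters (3 cores) matched as well, and PLOD3 and LOXL1 did not. A core was thus present in 5 of 8 genes, or in 7 of the 11 promoters, where 43.2% of all 35116 listed promoters have one. All LOX windows are among the 7, and those of its 2 downstream starts overlap and hold the same cores. The shares of all promoters are per promoter and not per gene. The SMAD box CAGAC was found in 5 of 8 genes, or 7 of the 11 promoters, and in 38% of all promoters. The AP-1 site TGACTCA was in 0 of the 8 genes, or 0 of the 11 promoters, and in 4.2% of all promoters. The TATA box TATAAA was in 1 of 8 genes, P4HA1, or 1 of the 11 promoters, and in 10.7% of all promoters. The share of G and C was 70.0% in the P4HA1 window, 72.4% in that of PLOD2, 55.2% in that of LOX and 54.8% in that of P4HA2, with a median of 58% over all promoters. A match is a description of the letters only.

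After 1 day, transcripts of both major prolyl 4-hydroxylase subunits were higher with TGF-β, about 2-fold for P4HA2 and 1.84-fold for P4HA1. After 20 days, P4HA2 was still higher with TGF-β, by 1.30-fold, and P4HA1 was not. In the D1 flasks P4HA1 was at 99.6, 132 and 119 cpm, and 1 day of TGF-β gave 209, 213 and 222 cpm. The levels on day 20 were 159.5, 170.9 and 179.2 cpm without TGF-β and 184.9, 196.1 and 150.4 cpm with it. Every D1+ TGF-β flask lay above every D1 flask, and the D20+ TGF-β flasks overlapped with those of D20. P4HA1 (Entrez 5033, chromosome 10, 74766975 to 74856732, minus strand, GRCh37) rose in D1+ TGF-β vs D1 (log2 fold change of 0.88 with an SE of 0.11, edgeR adjusted p = 7.58e-05). It also rose without TGF-β from D1 to D20 (log2 fold change of 0.54 with an SE of 0.11, edgeR adjusted p = 0.00102). At D20+ TGF-β it had a log2 fold change of 0.06 against D20 (edgeR adjusted p = 0.685). These are levels in RNA of whole flasks, where fewer cells of a kind and less RNA per cell cannot be told apart.

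The untreated flasks had 80.5, 71.7 and 68.0 cpm of P4HA2 on day 1 and 105, 107 and 115 cpm on day 20. The treated flasks had 151, 156 and 157 cpm on day 1 and 147, 139 and 139 cpm on day 20. The 4 conditions did not overlap at all, in the order D1, D20, D20+ TGF-β and D1+ TGF-β from lowest to highest. P4HA2 (Entrez 8974, chromosome 5, 131525840 to 131631008, minus strand) rose in D1+ TGF-β vs D1 (log2 fold change of 1.08 with an SE of 0.07, edgeR adjusted p = 3.16e-07), in D20+ TGF-β vs D20 (log2 fold change of 0.38 with an SE of 0.07, edgeR adjusted p = 9.09e-04) and in D20 vs D1 (log2 fold change of 0.57 with an SE of 0.07, edgeR adjusted p = 2.40e-05). Between both treated conditions it differed by −0.13 on the log2 scale, which was not called (edgeR adjusted p = 0.154).

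P4HA3 was at 7.18, 25.4 and 4.77 cpm in the D1 flasks and 10.7, 11.5 and 11.5 cpm in the D1+ TGF-β flasks. By day 20, its levels were 5.34, 5.37 and 3.85 cpm in the untreated flasks and 26.0, 25.4 and 7.23 cpm in the treated ones. This minor subunit was near the filter, and its level turned on the 2 libraries that stand apart: D1 replicate 2 was high like 2 of the D20+ TGF-β flasks, and D20+ TGF-β replicate 3 was low like the other 2 D1 flasks. P4HA3 (Entrez 283208, chromosome 11, 73946846 to 74022685, minus strand) rose in D20+ TGF-β vs D20 (log2 fold change of 2.05 with an SE of 0.55, edgeR adjusted p = 0.00935), and without both libraries the log2 fold change was 2.45 (edgeR adjusted p = 5.20e-11). In D1+ TGF-β vs D1 the log2 fold change was −0.19 (edgeR adjusted p = 0.828) with all libraries and 0.93 (edgeR adjusted p = 2.13e-04) without both. Without D1 replicate 2 alone the value was 0.93 too, but P4HA3 was not called. Both libraries were left out after the data were seen, and for P4HA3 they were the flasks unlike the others of their conditions. The values and adjusted p without them therefore add no support. The adjusted p of edgeR, DESeq2 or limma-voom at day 20 lay between 5.20e-11 and 0.0443 over the alternatives and was above the threshold in 10 of 21, among them without D1 replicate 1, any D1+ TGF-β or D20 library, or D20+ TGF-β replicate 1 or 2 (log2 fold change 1.78 to 2.14).

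**Figure D1:**
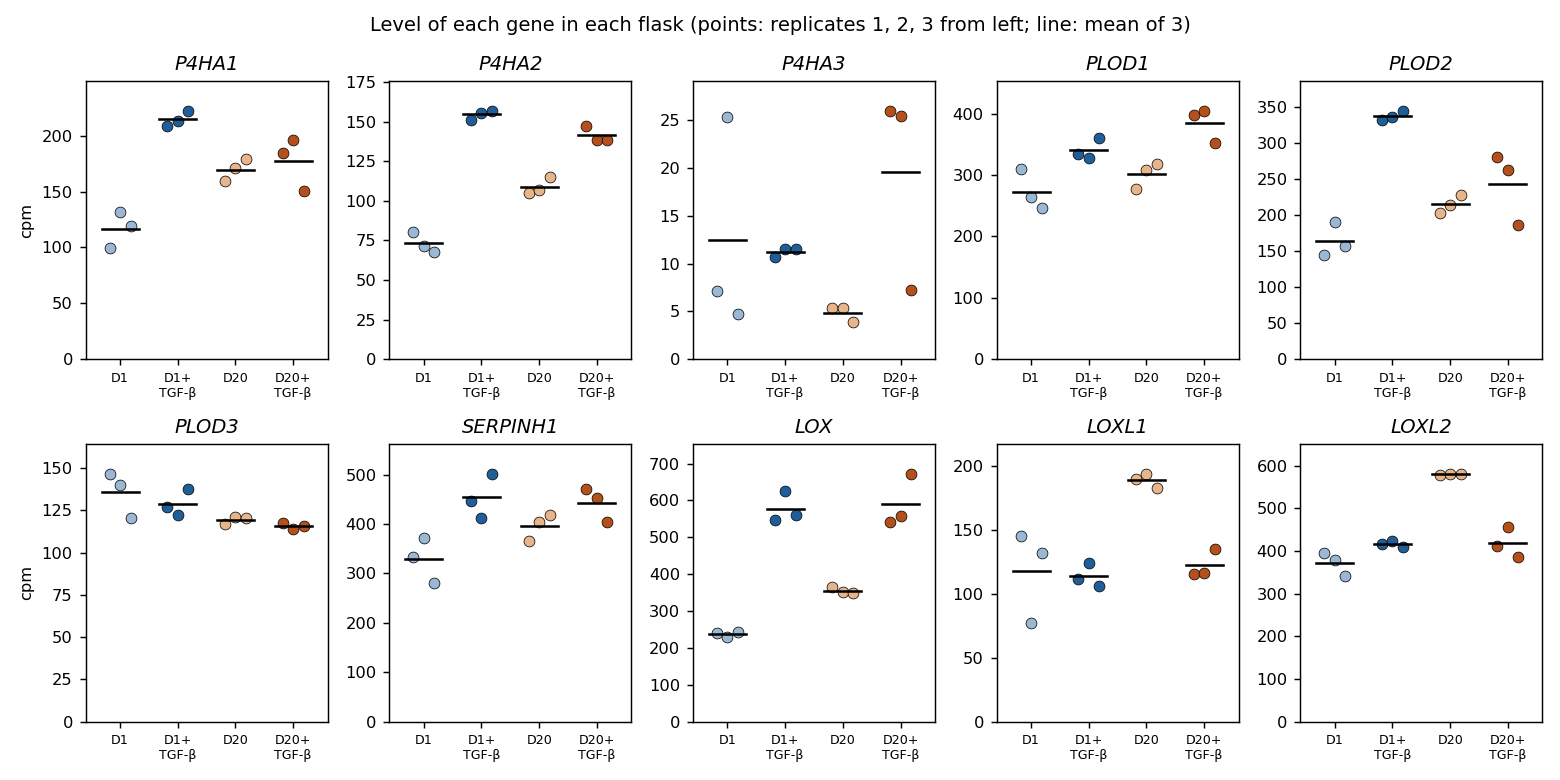
Level of each of the 10 genes in each flask in cpm (vertical axes start at 0), with replicates 1 to 3 as points from left to right in each condition and a line at their mean. The D1+ TGF-β points of P4HA1, P4HA2, PLOD2 and LOX lie above all D1 points, LOXL1 and LOXL2 are highest in the untreated D20 flasks, and P4HA3 shows the 2 flasks that stand apart.

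Of the lysyl hydroxylases, PLOD2 was 2.06-fold higher after 1 day of TGF-β, PLOD1 was higher by 1.28-fold after 20 days, and PLOD3 was not called in any comparison. In the D1 flasks PLOD2 was at 144.3, 190.2 and 156.5 cpm, and 1 day of TGF-β gave 331, 336 and 344 cpm. The levels on day 20 were 202, 214 and 228 cpm without TGF-β and 280.3, 262.3 and 186.2 cpm with it. The D1+ TGF-β flasks were above all others. PLOD2 (Entrez 5352, chromosome 3, 145752926 to 145881512, minus strand) rose in D1+ TGF-β vs D1 (log2 fold change of 1.04 with an SE of 0.13, edgeR adjusted p = 9.90e-05), and fell over time with TGF-β, from day 1 to day 20 (log2 fold change of −0.47 with an SE of 0.13, edgeR adjusted p = 0.00943). Against D20, its log2 fold change at D20+ TGF-β was 0.18 (edgeR adjusted p = 0.298). D20+ TGF-β replicate 3 was the lowest of its condition, and without both libraries that stand apart PLOD2 rose on day 20 too, with a log2 fold change of 0.35 (edgeR adjusted p = 2.02e-04). In D20 vs D1 its log2 fold change was 0.39 (edgeR adjusted p = 0.0252) with all libraries and 0.50 (edgeR adjusted p = 4.79e-06) without both. The fall between the treated conditions was lost in 12 of 22 alternatives, among them without D1 replicate 3, any D1+ TGF-β or D20 library, or D20+ TGF-β replicate 2 or 3 (log2 fold change −0.53 to −0.31), with edgeR adjusted p up to 0.0302, and without both libraries that stand apart it was −0.32 (edgeR adjusted p = 4.18e-04).

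PLOD1, a hydroxylase of lysines in the helical part of the chains, was read at 309, 264 and 246 cpm in the D1 flasks, 333.9, 327.3 and 360.2 cpm in the D1+ TGF-β flasks, 277, 309 and 317 cpm in the D20 flasks and 398, 405 and 353 cpm in the D20+ TGF-β flasks. With TGF-β all flasks were above the untreated ones of the same day. PLOD1 (Entrez 5351, chromosome 1, 11994262 to 12035595, plus strand) rose in D20+ TGF-β vs D20 (log2 fold change of 0.36 with an SE of 0.09, edgeR adjusted p = 0.00779). The difference at D1 had nearly the same size and missed the threshold (log2 fold change of 0.32 with an SE of 0.09, edgeR adjusted p = 0.0239). The call at day 20 was lost in 9 of 22 alternatives, among them without any D1+ TGF-β or D20 library or D20+ TGF-β replicate 1 or 2 (log2 fold change 0.30 to 0.40, edgeR adjusted p up to 0.0414). At day 1 it was gained without D1 replicate 1, at 0.42 (edgeR adjusted p = 0.00565), without both libraries that stand apart, at 0.30 (edgeR adjusted p = 0.00783), and with DESeq2, at 0.32 (DESeq2 adjusted p = 0.00608). PLOD3, which also adds sugars to hydroxylysine, was between 114 and 147 cpm over the 12 flasks, and its mean went from 136 ± 13.6 cpm in D1 (SD, n = 3) to 116 ± 1.71 cpm in D20+ TGF-β. Its largest difference was a log2 fold change of −0.18 in D20 vs D1 (edgeR adjusted p = 0.0579), which was called without D1 replicate 3, at −0.26 (edgeR adjusted p = 0.00624).

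SERPINH1, the chaperone, was higher by 1.38-fold after 1 day of TGF-β. The untreated flasks had 334, 372 and 281 cpm of SERPINH1 on day 1 and 365, 405 and 419 cpm on day 20. The treated flasks had 448, 413 and 502 cpm on day 1 and 470.3, 452.3 and 404.6 cpm on day 20. The D1+ TGF-β flasks were all above the D1 flasks, and those of D20+ TGF-β overlapped with D20. SERPINH1 (Entrez 871, chromosome 11, 75273101 to 75283828, plus strand) rose in D1+ TGF-β vs D1 (log2 fold change of 0.46 with an SE of 0.11, edgeR adjusted p = 0.00683), and had a log2 fold change of 0.16 in D20+ TGF-β vs D20 (edgeR adjusted p = 0.255). The call at day 1 was lost in 11 of 22 alternatives, among them without D1 replicate 1 or 3, any D1+ TGF-β library, D20 replicate 2 or 3, or D20+ TGF-β replicate 2 (log2 fold change 0.36 to 0.53, edgeR adjusted p up to 0.0349). In D20 vs D1 its log2 fold change was 0.27 (edgeR adjusted p = 0.0525), and 0.37 (edgeR adjusted p = 0.00810) without D1 replicate 2.

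The lysyl oxidases divided by gene. LOX was more than 2-fold higher with TGF-β at day 1 and 1.67-fold higher at day 20, while LOXL1 and LOXL2 were lower with TGF-β at day 20 and were not called at day 1. LOX was at 240.8, 230.4 and 243.2 cpm in the D1 flasks and 548, 625 and 559 cpm in the D1+ TGF-β flasks. By day 20, its levels were 364, 352 and 348 cpm in the untreated flasks and 541, 557 and 673 cpm in the treated ones. On both days all treated flasks lay above all untreated ones, and the treated flasks of the 2 days overlapped. LOX (Entrez 4015, chromosome 5, 121398890 to 121414108, minus strand) rose in D1+ TGF-β vs D1 (log2 fold change of 1.28 with an SE of 0.09, edgeR adjusted p = 3.87e-07), in D20+ TGF-β vs D20 (log2 fold change of 0.74 with an SE of 0.09, edgeR adjusted p = 2.09e-05) and without TGF-β in D20 vs D1 (log2 fold change of 0.57 with an SE of 0.09, edgeR adjusted p = 1.12e-04). Of the 10 genes it had the largest called rise at day 1.

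In the D1 flasks LOXL2 was at 395.6, 379.9 and 342.1 cpm, and 1 day of TGF-β gave 416, 424 and 409 cpm. The levels on day 20 were 577.5, 581.9 and 580.2 cpm without TGF-β and 412, 457 and 386 cpm with it. The 3 untreated D20 flasks were above all 9 others and lay within 5 cpm of each other. LOXL2 (Entrez 4017, chromosome 8, 23154410 to 23282841, minus strand) rose from D1 to D20 without TGF-β (log2 fold change of 0.64 with an SE of 0.08, edgeR adjusted p = 1.61e-05) and fell in D20+ TGF-β vs D20 (log2 fold change of −0.47 with an SE of 0.08, edgeR adjusted p = 2.91e-04). The treated flasks of the 2 days overlapped, with a log2 difference of 0.01 over time (SE 0.08, edgeR adjusted p = 0.953).

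LOXL1, an oxidase best known for its part in elastic fibres, was also highest in the untreated flasks of day 20. The untreated flasks had 146, 77.0 and 132 cpm of LOXL1 on day 1 and 189.9, 194.3 and 183.2 cpm on day 20. The treated flasks had 112, 124 and 106 cpm on day 1 and 116, 117 and 135 cpm on day 20. The untreated D20 flasks were above all others, and D1 replicate 2 was the lowest of all flasks. LOXL1 (Entrez 4016, chromosome 15, 74218330 to 74244478, plus strand) rose in D20 vs D1 (log2 fold change of 0.68 with an SE of 0.17, edgeR adjusted p = 0.00421) and fell in D20+ TGF-β vs D20 (log2 fold change of −0.63 with an SE of 0.17, edgeR adjusted p = 0.00877). The fall was lost in 13 of 22 alternatives, among them without D1 replicate 3, any D1+ TGF-β or D20 library, or D20+ TGF-β replicate 1 or 2 (log2 fold change −0.65 to −0.57, edgeR adjusted p up to 0.0393), while without both libraries that stand apart it was −0.69 (edgeR adjusted p = 2.83e-07). The rise was lost without any 1 of the D20 libraries (0.66 to 0.70, edgeR adjusted p up to 0.0158). In D1+ TGF-β vs D1 the log2 fold change was −0.05 (edgeR adjusted p = 0.872) and without both libraries −0.27 (edgeR adjusted p = 0.00664).

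**Figure D2:**
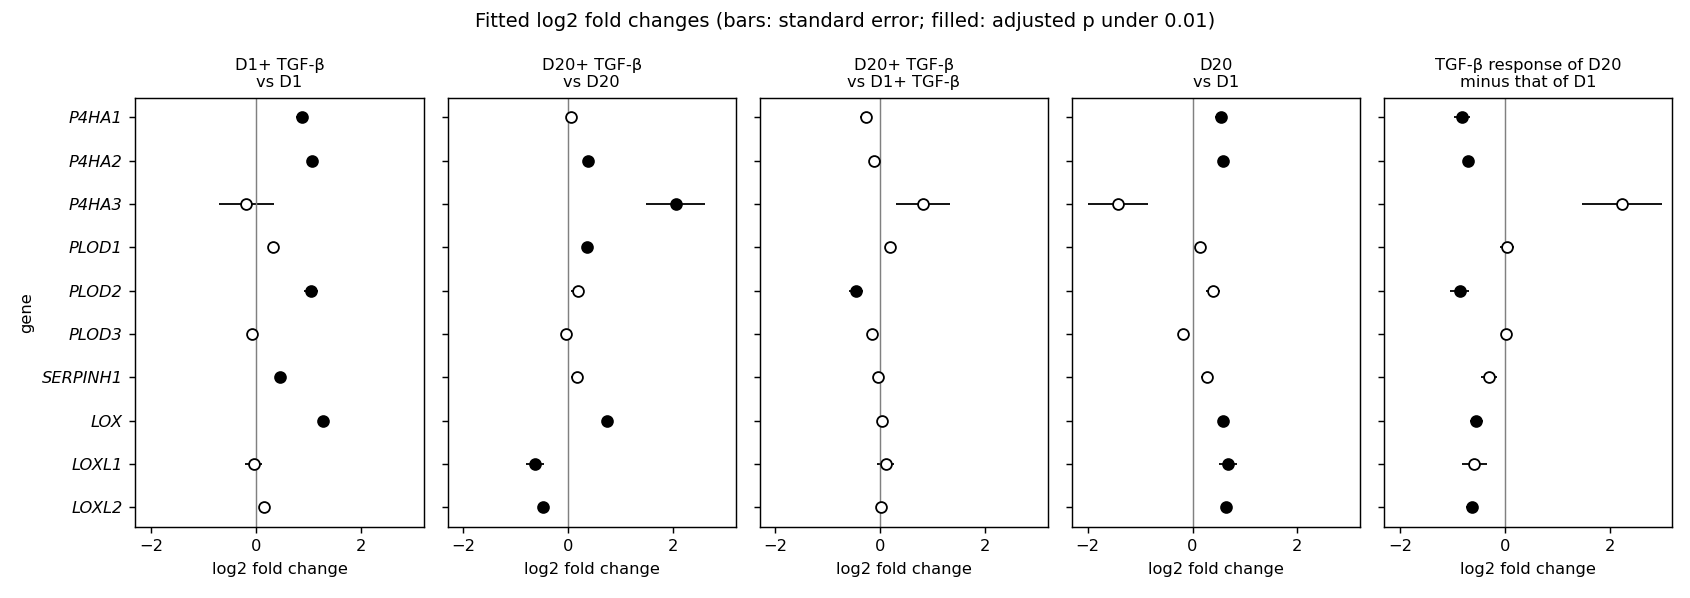
Fitted log2 fold change of each gene (horizontal axis, zero at the grey line) in the 4 comparisons and for the difference of the TGF-β responses, with bars of 1 standard error and filled points where the adjusted p was under 0.01. P4HA1, P4HA2, PLOD2, SERPINH1 and LOX are filled to the right in D1+ TGF-β vs D1, and LOXL1 and LOXL2 are filled to the left in D20+ TGF-β vs D20 and to the right in D20 vs D1.

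The log2 response to TGF-β was lower at day 20 than at day 1 for 5 of the 10 genes, in a test of the difference between the 2 responses. The difference was −0.86 on the log2 scale for PLOD2 (SE 0.19, edgeR adjusted p = 0.00553) and −0.82 for P4HA1 (SE 0.15, edgeR adjusted p = 0.00227). It was −0.70 for P4HA2 (SE 0.10, edgeR adjusted p = 4.51e-04), −0.63 for LOXL2 (SE 0.11, edgeR adjusted p = 0.00139) and −0.54 for LOX (SE 0.12, edgeR adjusted p = 0.00704). For P4HA1, P4HA2 and LOX the level in the untreated flasks rose by day 20, and that of the treated flasks was not called different (log2 fold change −0.28, −0.13 and 0.03). For PLOD2 the untreated flasks were higher by 0.39 on the log2 scale at D20 (edgeR adjusted p = 0.0252) and the treated ones lower. For LOXL2, whose untreated flasks rose as well, the response was 0.16 at day 1 and −0.47 at day 20. The difference had the same sign and missed the threshold for LOXL1 (log2 fold change −0.58, edgeR adjusted p = 0.101) and SERPINH1 (log2 fold change −0.30, edgeR adjusted p = 0.175). It was near 0 for PLOD1 (0.04) and PLOD3 (0.03), and 2.24 for P4HA3 (edgeR adjusted p = 0.0521). The calls of P4HA1, P4HA2 and LOXL2 held in all 21 alternatives. Those of PLOD2 and LOX were lost in 9 and 13 of them, among them without D1 replicate 1 or 3, any D1+ TGF-β library or any D20 library, and for LOX also without D20+ TGF-β replicate 1 or 2. The values without each library were −0.90 to −0.78 for PLOD2 and −0.58 to −0.47 for LOX where the call was lost. Without D20+ TGF-β replicate 3, the response of P4HA3 was larger at day 20 by 2.62 (edgeR adjusted p = 0.00926). That flask was the low one of its condition for P4HA3, so this value adds no support.

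Counted over the 10 genes, 5 rose in D1+ TGF-β vs D1, where 6.89% of all genes tested were called higher and 6.50% lower. 0 members were called lower by edgeR, DESeq2 or limma-voom, and 0 had an unadjusted p under 0.05 in that direction. In D20+ TGF-β vs D20, 4 members rose and 2 fell, against 12.8% and 14.7% of all genes. Of the 4, P4HA3 had passed the filter through flasks where it was high, some of them of D20+ TGF-β, so its call adds no support. That call was lost in 10 of 21 alternatives. In D20 vs D1, 5 rose, against 18.9% of all genes, and 0 were called lower by edgeR, DESeq2 or limma-voom, where 17.6% of genes were and 2 members had an unadjusted p under 0.05 in edgeR. Over time with TGF-β PLOD2 was the only member called, lower, where 17.2% of genes were called higher and 17.7% lower. In that comparison 0 members were higher by edgeR, DESeq2 or limma-voom or at an unadjusted p under 0.05. The share of members called there, 1 of 10, was below that of all genes. For the difference of the responses, 5 members were lower, against 5.87% of genes, and 0 were higher by edgeR, DESeq2 or limma-voom, against 4.51%, with 1 member at an unadjusted p under 0.05 in edgeR. Without both libraries that stand apart, 7 members were higher and 1 was lower in D1+ TGF-β vs D1, 5 and 2 in D20+ TGF-β vs D20, 1 and 1 over time with TGF-β, 7 and 0 in D20 vs D1, and 1 and 6 for the difference of responses. That fit also called more of all genes in D1+ TGF-β vs D1 and for the difference of responses, with the numbers given further below. The shares above are of the fit with all libraries, so the counts without both are no result about the members.

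The flasks of 2 conditions did not overlap for 7 members in D1+ TGF-β vs D1 (36.4% of all genes), 6 in D20+ TGF-β vs D20 (58.3%), 4 over time with TGF-β (63.2%) and 6 in D20 vs D1 (55.6%). Of these shares, that at D1 was above the share of all genes and the others were near or below it. The median log2 fold change of the members was 0.39 in D1+ TGF-β vs D1, 0.17 in D20+ TGF-β vs D20, −0.02 over time with TGF-β and 0.47 in D20 vs D1, where that of all genes lay between −0.02 and 0.01. The median difference of responses was −0.56 for the members and 0.02 for all genes.

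Levels of different genes were compared per length of exon, as the share of each gene in its family's counts per kilobase (mean ± SD of 3 flasks). P4HA1 made up 78.6 ± 3.8% of the prolyl 4-hydroxylase counts without and 79.3 ± 0.30% with TGF-β on day 1, and 82.1 ± 0.52% and 75.2 ± 1.1% on day 20. P4HA2 made up 15.3 ± 3.2%, 17.4 ± 0.26%, 16.1 ± 0.34% and 18.6 ± 2.5% in the same order. On day 1 the shares of both subunits overlapped between treated and untreated flasks, and P4HA1 was the larger in all 12 flasks. These shares depended on the length used, since the P4HA2 exons span 10128 bases over all its annotated transcripts and 4547 in its canonical one. With canonical lengths P4HA1 made up 66.4 ± 4.7%, 66.75 ± 0.40%, 70.3 ± 0.68% and 61.9 ± 1.3% in the same order. P4HA2 then made up 25.55 ± 5.0%, 29.0 ± 0.36%, 27.2 ± 0.51% and 30.2 ± 3.85%, still below P4HA1. Among the lysyl hydroxylases, PLOD1 was the largest, with 59.2 ± 2.6% without and 58.2 ± 0.32% with TGF-β on day 1, and 61.2 ± 0.95% and 66.1 ± 0.83% on day 20. The share of PLOD2 was 13.1 ± 2.3% without and 21.1 ± 0.64% with TGF-β on day 1, and 16.0 ± 0.31% and 15.2 ± 2.0% on day 20. The share of PLOD3 went the other way, from 27.6 ± 0.55% at D1 to 20.7 ± 0.33% at D1+ TGF-β. On day 20 it was 22.8 ± 0.93% without and 18.7 ± 1.6% with TGF-β, above that of PLOD2. This order on day 20 depended on the length used, since the exons of PLOD2 span 14518 bases over all its annotated transcripts and 3749 in its canonical one. With canonical lengths, PLOD2 was above PLOD3 on day 20, at 28.5 ± 0.47% against 21.1 ± 0.85% without TGF-β and 27.3 ± 3.2% against 17.6 ± 1.8% with it. On day 1 the order of their means was the same with either length. Without both libraries that stand apart, the mean share of P4HA3 was 3.43% in place of 6.08 ± 4.7% at D1 and 7.85% in place of 6.18 ± 2.9% at D20+ TGF-β.

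The lysyl oxidase family, taken with LOXL3 and LOXL4, had another make-up with TGF-β on both days. LOX took 27.9 ± 1.9% of the family at D1 and 26.8 ± 0.55% at D20, and 45.2 ± 1.0% at D1+ TGF-β and 46.1 ± 3.4% at D20+ TGF-β. LOXL2 took 40.8 ± 3.9% at D1 and 41.0 ± 0.48% at D20, and 30.6 ± 1.2% at D1+ TGF-β and 30.7 ± 3.5% at D20+ TGF-β. LOXL2 was thus first without TGF-β and LOX was first with it. LOXL1 had 21.0 ± 5.1% and 22.0 ± 0.41% without TGF-β and 13.7 ± 0.41% and 14.7 ± 0.68% with it. LOXL3 and LOXL4 made up between 2.3% and 8.3% each over the 12 flasks. With canonical lengths LOXL2 was still first without TGF-β, but LOXL1 came before LOX there, at 23.2 ± 5.7% against 21.9 ± 1.5% at D1 and 24.2 ± 0.45% against 21.0 ± 0.44% at D20. With TGF-β, LOX and LOXL2 then lay within 1 SD of each other, at 38.0 ± 0.98% and 37.5 ± 1.3% at D1+ TGF-β and 38.5 ± 3.3% and 37.4 ± 3.8% at D20+ TGF-β. The mean share of LOX was higher and that of LOXL2 lower with TGF-β under either length. These shares are given as descriptions by flask, with no test.

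**Figure D3:**
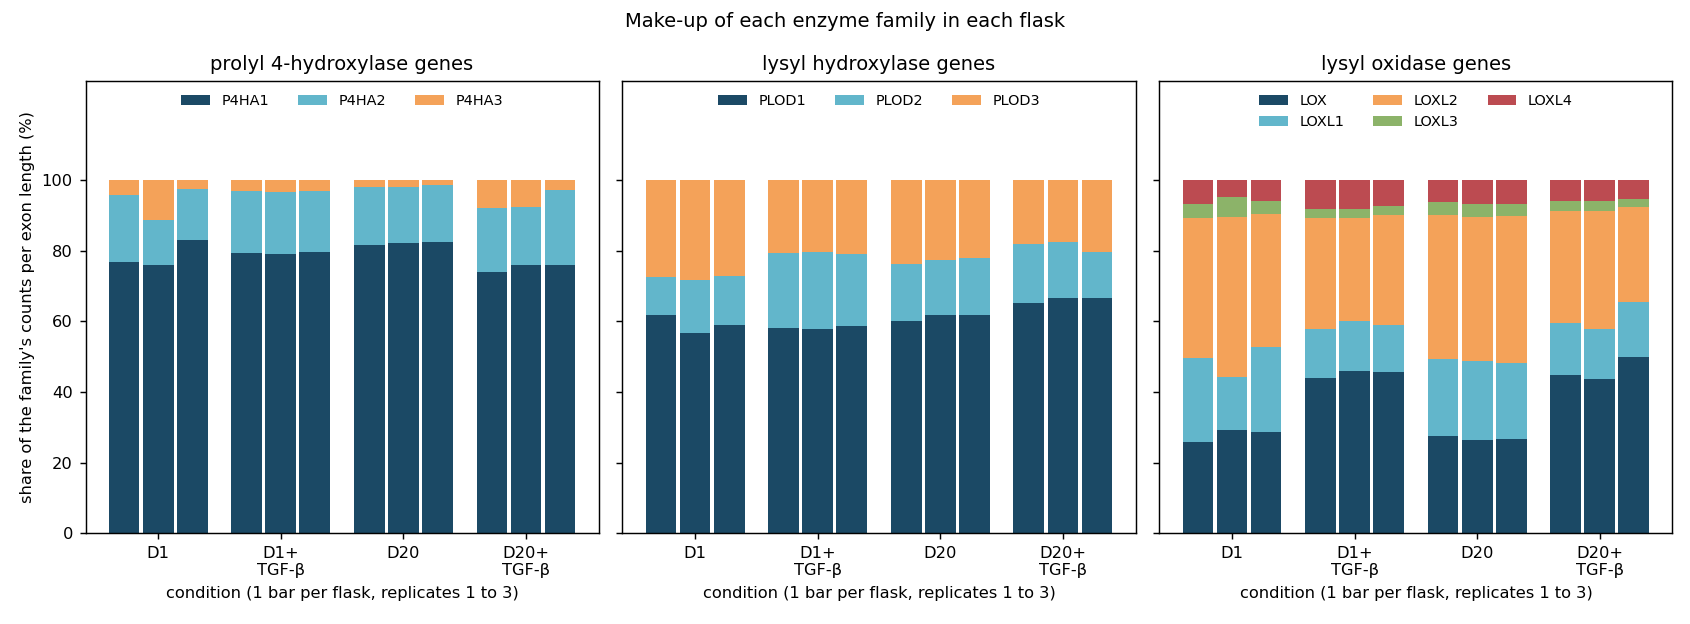
Share of each gene in the counts per exon length of its family (vertical axis, percent), with 1 stacked bar per flask and the flasks of a condition side by side. In the lysyl oxidase panel the LOX segment is larger and the LOXL2 segment smaller in all 6 treated flasks than in the 6 untreated ones, and in the lysyl hydroxylase panel the PLOD2 segment is largest in the 3 D1+ TGF-β flasks.

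Transcripts of the fibrillar collagens, the substrates of these enzymes, summed to more with TGF-β than without it in every flask of both days. The 6 genes summed to 7082 ± 1209 cpm without and 12226 ± 414 cpm with TGF-β on day 1, and to 10622 ± 521 and 15124 ± 1770.3 cpm on day 20 (mean ± SD, n = 3). In D1+ TGF-β vs D1, 4 of the 6 rose: COL5A1 (log2 fold change 1.87, edgeR adjusted p = 4.69e-07), COL1A1 (log2 fold change 1.09, edgeR adjusted p = 2.50e-05), COL11A1 (log2 fold change 1.06, edgeR adjusted p = 3.70e-05) and COL1A2 (log2 fold change 0.51, edgeR adjusted p = 0.00577). COL3A1 had a log2 fold change of 0.23 and COL5A2 of −0.0040. In D20+ TGF-β vs D20, COL11A1 (1.2), COL1A1 (0.99) and COL5A1 (0.87) rose and COL5A2 fell (−0.80), with edgeR adjusted p between 3.30e-06 and 9.07e-04. COL1A2 (0.38) and COL3A1 (−0.22) were not called there by edgeR, while DESeq2, and edgeR without both libraries that stand apart, called 4 higher. Without TGF-β, 5 of the 6 rose from D1 to D20, COL3A1 the most (log2 fold change 1.74, edgeR adjusted p = 1.36e-05) and COL5A2 next (log2 fold change 1.28, edgeR adjusted p = 1.47e-05), and COL1A1 was not called (log2 fold change 0.28). COL3A1 (1.30) and COL11A1 (0.58) were higher at D20+ TGF-β than at D1+ TGF-β, where DESeq2, and edgeR without both libraries that stand apart, called 4 of the 6 higher. Of the 6, COL5A1 was the only one whose response was called different between days (log2 difference −1.0, edgeR adjusted p = 0.00189), while DESeq2, and edgeR without both libraries that stand apart, called 2.

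Each member was also set against these transcripts. The log2 ratio of each member's cpm to the summed collagen cpm is given by flask, with no test. Most of that sum was COL1A1 and COL1A2, with means of 6465 and 4352.5 cpm at D1+ TGF-β and 7322.5 and 5549.2 cpm at D20+ TGF-β. It is a ratio of counts not scaled for length, and "per collagen transcript" stands for this ratio below. For P4HA1 it was −5.98, −5.97 and −5.95 at D20 and −6.36, −6.43 and −6.47 at D20+ TGF-β, where the 3 treated flasks lay below the untreated ones. At D1+ TGF-β the same ratio was −5.83, −5.83 and −5.83, within the range of the D1 flasks (−6.39, −5.72 and −5.64). P4HA1 per collagen transcript thus overlapped between the groups on day 1 and was lower with TGF-β on day 20. For LOX the ratio was −5.12, −4.92 and −4.61 at D1 and −4.44, −4.28 and −4.50 at D1+ TGF-β, where all treated flasks were higher, and −4.79, −4.93 and −4.99 at D20 and −4.81, −4.92 and −4.31 at D20+ TGF-β, where they overlapped. For LOXL2 it was −4.40, −4.19 and −4.12 at D1 and −4.84, −4.84 and −4.95 at D1+ TGF-β, and −4.12, −4.21 and −4.25 at D20 and −5.20, −5.21 and −5.11 at D20+ TGF-β. LOXL2 was therefore lower per collagen transcript in all 6 treated flasks than in all 6 untreated ones. Since the collagen sum was higher in every treated flask, a lower ratio was the rule over all genes. At day 1 the ratio was lower in every treated flask for 5 members and for 89.2% of all genes tested, and higher for 2 members, P4HA2 and LOX, and for 0.875% of all genes. At day 20 it was lower for 7 members and 73.5% of all genes. It was higher for 3.32% of all genes and for P4HA3, which had passed the filter through the flasks where it was high. Over time with TGF-β it was lower for 7 members and 51.0% of all genes, and higher for 0 members and 10.1% of all genes, with the largest mean difference for PLOD2 (−0.80). In D20 vs D1 it was lower for 4 members and 69.7% of all genes, and higher for 0 members and 3.78% of all genes. Without both libraries that stand apart, 4 members were higher at day 1, PLOD2 and P4HA3 being added, 8 were lower at day 20, and 9 were lower and 1 was higher over time with TGF-β. Fewer flasks are less likely to overlap, and the share of all genes was not computed without both, so these counts are no result about the members. P4HA3, among those higher, had passed the filter through flasks where it was high and adds no support. The mean difference of P4HA3 in D20 vs D1 was −1.59 with all libraries and −0.88 without both.

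**Figure D4:**
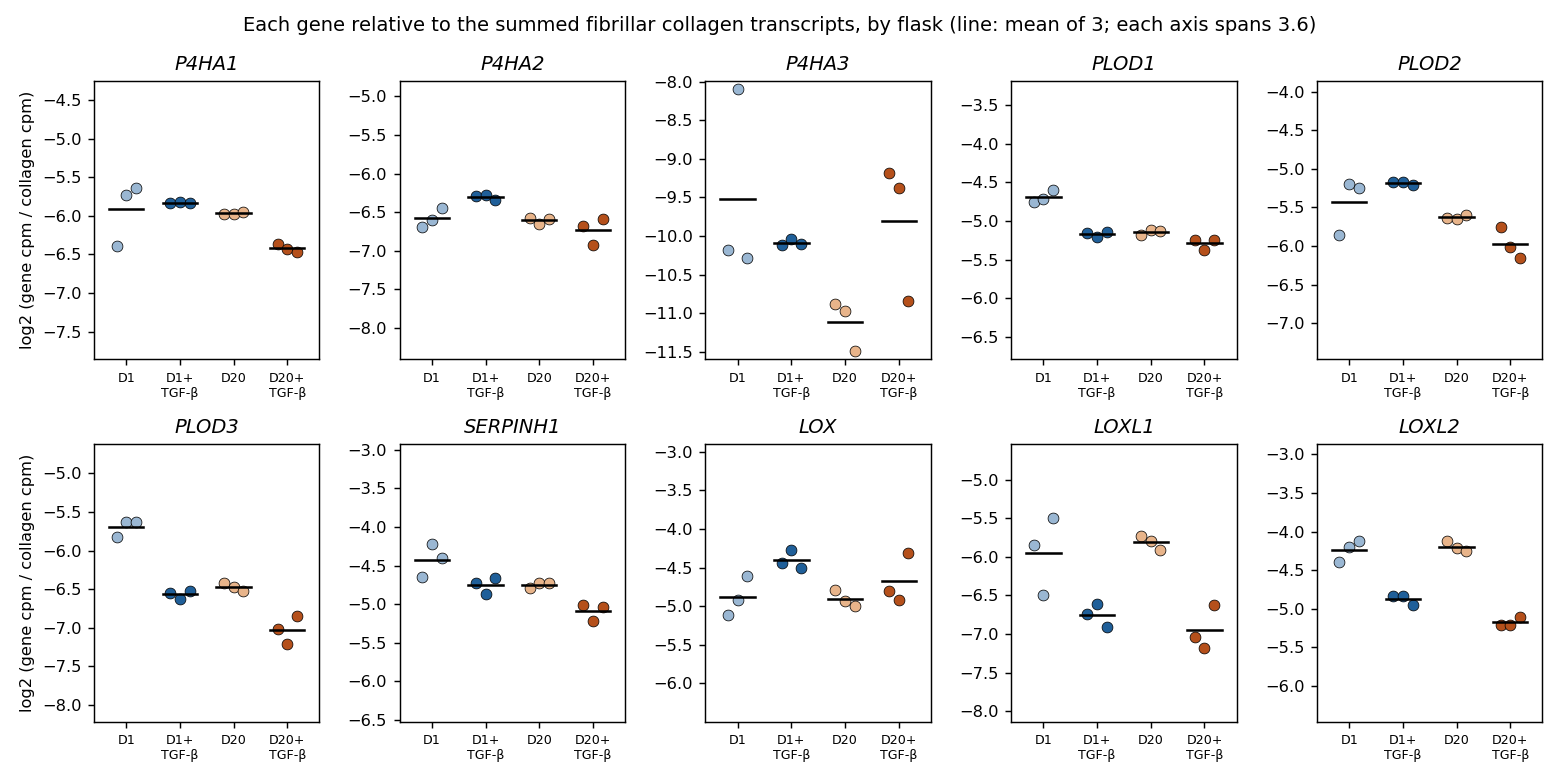
Log2 ratio of each gene's cpm to the summed cpm of 6 fibrillar collagen genes, most of it COL1A1 and COL1A2, in each flask (every vertical axis spans the same range, and a higher point means more counts of the gene per collagen count), with the mean of 3 flasks as a line. LOXL1, LOXL2, PLOD1, PLOD3 and SERPINH1 lie lower in the treated than in the untreated flasks on both days. P4HA1 and PLOD2 do so at day 20 only, and the LOX points are higher at D1+ TGF-β than at D1.

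Other genes of collagen folding, processing and cross-linking were taken from a list of 29, of which 23 were tested. In D1+ TGF-β vs D1, where 6.89% of all genes tested were called higher, 8 rose, among them SPARC, a collagen-binding protein (log2 fold change 1.09, edgeR adjusted p = 3.16e-07), LOXL4, a further lysyl oxidase (log2 fold change 1.02, edgeR adjusted p = 2.13e-04), and FKBP14, a prolyl isomerase of the endoplasmic reticulum (log2 fold change 0.73, edgeR adjusted p = 1.28e-04). 0 were called lower by edgeR, DESeq2 or limma-voom, with 3 at an unadjusted p under 0.05 in edgeR. P4HB, the β subunit that P4HA1, P4HA2 and P4HA3 need as partner, had a log2 fold change of 0.18 at day 1 (edgeR adjusted p = 0.101) and 0.07 at day 20 (edgeR adjusted p = 0.482). In D20+ TGF-β vs D20, 6 rose and 5 fell, against 12.8% and 14.7% of all genes. P3H2, a prolyl 3-hydroxylase, fell the most, from 189.6 ± 23.2 cpm at D20 to 41.0 ± 4.70 cpm (SD, n = 3; log2 fold change −2.21, edgeR adjusted p = 6.38e-07). TGM2, a transglutaminase that cross-links matrix proteins, fell too (log2 fold change −1.75, edgeR adjusted p = 6.53e-04), and P3H4, a partner of PLOD1 in helical lysine hydroxylation, rose (log2 fold change 0.65, edgeR adjusted p = 0.00145). The median log2 fold change over the 23 was 0.18 at day 1 and −0.02 at day 20, beside −0.02 and 0.01 over all genes.

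In D20 vs D1, 6 of the 23 rose, against 18.9% of all genes. The number was 11 without both libraries that stand apart, a fit to which that share does not apply. The 6 had P3H2 (log2 fold change 1.35, edgeR adjusted p = 2.20e-05) and LOXL4 (log2 fold change 0.81, edgeR adjusted p = 4.12e-04) as the most, and 1 of the 23 fell, TMEM38B, an endoplasmic reticulum cation channel needed for normal collagen modification (log2 fold change −0.49, edgeR adjusted p = 0.00241). Over time with TGF-β, 2 were higher and 5 lower, against 17.2% and 17.7% of all genes, with FKBP14 (−0.90) and SPARC (−0.60) lower and PCOLCE, which enhances cleavage of the procollagen C-propeptide, higher (0.66), with edgeR adjusted p between 1.15e-05 and 3.79e-05. The TGF-β response was lower at day 20 for 7 of the 23 and higher for 1, PCOLCE (log2 fold change 0.63, edgeR adjusted p = 0.00232), against 5.87% and 4.51% of all genes. Without both libraries that stand apart it was lower for 9 and higher for 3, in a fit that called more of all genes as well. Among the genes called, the largest differences were those of P3H2 (log2 fold change −1.70, edgeR adjusted p = 4.30e-04), LOXL4 (log2 fold change −1.31, edgeR adjusted p = 7.00e-04) and SPARC (log2 fold change −1.01, edgeR adjusted p = 3.35e-05). Without TGF-β, SPARC was at 549.6 ± 26.7 cpm on day 1 and 733 ± 31.6 cpm on day 20, and with it at 1167 ± 51.1 and 772 ± 42.9 cpm (SD, n = 3).

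Because the promoters were searched for the hypoxia core, 16 genes known as targets of the hypoxia-inducible factors that are no part of collagen synthesis were looked at as well, and 13 were tested. In D1+ TGF-β vs D1, where the 5 members rose, 4 of these fell, against 6.50% of all genes, with CA12, a carbonic anhydrase (log2 fold change −0.84, edgeR adjusted p = 0.00775), and ADM, adrenomedullin (log2 fold change −0.77, edgeR adjusted p = 2.33e-05), the most. 0 were called higher by edgeR, DESeq2 or limma-voom, with 4 at an unadjusted p under 0.05 in edgeR, and 3 were called (VEGFA, KDM3A and PFKFB3) without both libraries that stand apart. In D20+ TGF-β vs D20, 2 rose and 5 fell, against 12.8% and 14.7% of all genes, and the number that rose was 3 with DESeq2, 1 with limma-voom and 4 without both libraries that stand apart. The largest falls were those of ADM (log2 fold change −1.16, edgeR adjusted p = 1.65e-07) and PDK1, a kinase that limits entry of pyruvate into the mitochondria (log2 fold change −0.99, edgeR adjusted p = 2.36e-04). In D20 vs D1, where 18.9% of all genes were called higher, 6 rose, ADM (log2 fold change 1.16, edgeR adjusted p = 1.76e-07) and MXI1, an antagonist of MYC (log2 fold change 0.99, edgeR adjusted p = 9.67e-06), the most, and 1 fell, PDK1 (log2 fold change −0.63, edgeR adjusted p = 0.00295), joined by CA12 without both libraries that stand apart. Over time with TGF-β, 5 were higher, against 17.2% of all genes, CA12 (1.36) and MXI1 (1.16) the most, and 1 was lower, PDK1 (−0.93). The number higher was 8 without both libraries that stand apart, a fit to which that share does not apply. The TGF-β response differed between days for CA12 (log2 fold change 1.60, edgeR adjusted p = 0.00135) and BNIP3L (log2 fold change −0.45, edgeR adjusted p = 0.00705), and without both libraries that stand apart for SLC2A1 too. Oxygen was not measured, and the part of hypoxia in the members' levels was not tested.

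Several members share bases with other genes, and neither the counting program nor its use of strand is given in the sources used here, although the library kit keeps the strand. LOXL1-AS1 lies opposite LOXL1 and shares 335 exon bases with it, 9.21% of the LOXL1 exons. It was 20.1, 19.1 and 20.8 cpm in the D20 flasks and 12.8, 13.1 and 15.2 cpm in the D20+ TGF-β flasks and fell in that comparison as LOXL1 did (log2 fold change −0.55, edgeR adjusted p = 3.58e-04). At D1+ TGF-β it fell as well (log2 fold change −0.41, edgeR adjusted p = 0.00708), and its part in the LOXL1 counts was not tested. P4HA2 is overlapped by P4HA2-AS1, PDLIM4 and SLC22A4, P4HA3 by PPME1 and P4HA3-AS1, PLOD3 by ZNHIT1, LOX by SRFBP1 and LOXL2 by LOXL2-AS1, all on the opposite strand, and PLOD2 by LNCSRLR and LOXL2 by ENTPD4 on the same strand. PPME1 rose in D1+ TGF-β vs D1 (log2 fold change 0.41, edgeR adjusted p = 0.00120) and was level at day 20, from 42.9 to 45.6 cpm with or without TGF-β, where P4HA3 rose. SRFBP1 fell from D1 to D20 (log2 fold change −0.74, edgeR adjusted p = 7.13e-05), where LOX rose, and was at 10.4 to 21.2 cpm. PDLIM4 rose at day 1 (log2 fold change 0.59, edgeR adjusted p = 0.00534), where its exons share 0 bases with those of P4HA2, and SLC22A4 (−0.10) and ZNHIT1 (−0.05) were not called there. ENTPD4, with 120 exon bases in common with LOXL2, rose in D20 vs D1 (log2 fold change 0.46, edgeR adjusted p = 9.97e-05) and had a log2 fold change of −0.09 in D20+ TGF-β vs D20 (edgeR adjusted p = 0.305). It was at 73.6, 74.6 and 77.5 cpm in the D20 flasks. LOXL2-AS1 was at 3.13 to 6.00 cpm in all 12 flasks.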

How the data were processed

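RNA-seq was done on 12 libraries of WI-38 fibroblasts, 3 per condition, each from 1 flask and run over 4 lanes. Reads had been trimmed (Trimmomatic) and aligned to hg19 (Rsubread) by the authors, who deposited raw counts per gene and lane. The counting program, annotation and use of strand are not given in the sources used here. The authors also deposited log2 values, made with voom in limma after a filter of 10 cpm. Lanes were summed here to 8674488 to 18286197 counts per library, and all columns had a sample. Total counts were the library sizes, scaled by TMM, and 9490 of 20434 genes with a count passed 10 cpm in 6 libraries. The quasi-likelihood fit of edgeR 4.0.16 (R 4.3.3) had 1 term per condition, Benjamini-Hochberg adjustment over all genes tested and a threshold of 0.01, and was tested on simulated data. The SE was derived from the F statistic, and the common coefficient of biological variation was 9.35%. Levels are cpm with the same scaling.

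DESeq2 1.42.0, limma-voom and limma 3.58.1 on the deposited log2 values (9412 genes, which leave out P4HA3), other scalings and filters (20434 and 13768 genes), a replicate block and leaving out each library were alternatives. The members and lists were chosen with earlier results of these data known. Named are the 10 members, all fibrillar collagens, genes overlapping a member, in each comparison the 3 called pathway genes and 2 called hypoxia-inducible genes with the largest log2 fold changes, and the single genes behind counts of 1, which were named after their values were seen. MYL9 and CNN1 were also named after their values were seen. Gene names came from the deposited table or, where absent there, from RefSeq by Entrez identifier. Promoter sequences are from RefSeq (GRCh38.p14), and gene coordinates are of GRCh37, the build of the mapping.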

Additional observations from a re-analysis of the deposited data

Results flagged for a closer look

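In 5 of the 10 genes, the log2 response to TGF-β was lower at day 20 than at day 1 (edgeR, adjusted p under 0.01). This was a test of the difference itself, in which 5.87% of all genes tested were called lower and 4.51% higher. For 6 further genes the difference is given because they were called, under the naming rule for that comparison or as fibrillar collagens. Their number is therefore no result. The difference, day 20 minus day 1, was −0.86 for PLOD2, −0.82 for P4HA1, −0.7 for P4HA2, −0.63 for LOXL2 and −0.54 for LOX. The calls of PLOD2 and LOX were lost in 9 and 13 of 21 alternatives. Of the 23 collagen folding and cross-linking genes tested, 7 were called lower and 1, PCOLCE, higher. The largest differences called were −1.7 for P3H2, −1.31 for LOXL4 and −1.01 for SPARC. Of the 6 fibrillar collagen genes, 1 was called, COL5A1, with a difference of −1.0. Of the 13 hypoxia-inducible genes tested, 1 was called higher, CA12 (1.6), and 1 lower, BNIP3L (−0.45). Groups of 3 flasks are too small for a test of a single outlying flask.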

How the results depend on the processing

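Of 1085 recomputed fold changes and differences of the 10 genes, 961 kept their direction and side of the threshold, 81 lost the call, 17 gained one and 26 changed sign. All 26 changes of sign were of values that were not called with all libraries, and 1 of them, P4HA3 in D1+ TGF-β vs D1 without both libraries that stand apart, was called there (edgeR adjusted p = 2.13e-04). Of the 22 member calls, 14 held under every alternative, and the others were those of SERPINH1 in D1+ TGF-β vs D1, of P4HA3, PLOD1 and LOXL1 in D20+ TGF-β vs D20, of PLOD2 over time with TGF-β, of LOXL1 in D20 vs D1, and of PLOD2 and LOX for the difference of the responses. The causes were not tested, except that leaving out a library leaves fewer samples.

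Without a composition factor, 931 genes were lower in D1+ TGF-β vs D1 in place of 617 and 761 were higher for the difference of responses in place of 428, and members called lower were 1 in D20+ TGF-β vs D20, 0 over time with TGF-β and 3 for the difference of responses. With only the libraries of the comparison, 350 genes were lower in D1+ TGF-β vs D1 and 0 members were lower over time with TGF-β. Members called lower in D20+ TGF-β vs D20 were 1 with limma-voom and 1 with limma on the deposited log2 values. With no gene filter, 1 member was lower in D20 vs D1, and for the difference of responses 1 member and 697 genes were higher. Without both libraries that stand apart, a choice made after seeing the data, 1356 genes were higher and 1286 lower in D1+ TGF-β vs D1, with 1 member lower. In the same fit 1 member was higher over time with TGF-β, and for the difference of responses 1122 genes were higher and 1142 lower, with 1 member higher. Shares within families were recomputed with the longest and with the canonical transcript as the length, the canonical one also chosen after seeing the data. Of the 88 values from both lengths together, 72 moved by more than 1 SD.

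The replicate numbers did not pair the samples: correlations of deviations between same-numbered flasks ran from −0.22 to 0.32, and 5 of 12 libraries correlated best with their own number. With the replicate block, members called lower were 1 in D20+ TGF-β vs D20 and 0 over time with TGF-β, and SERPINH1 in D1+ TGF-β vs D1 (edgeR adjusted p = 0.0130), PLOD1 and LOXL1 in D20+ TGF-β vs D20 (0.0152 and 0.0116), PLOD2 over time with TGF-β (0.0112) and LOX for the difference of responses (0.0127) were not called.

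With 1 library left out at a time, genes called higher ran from 370 to 978 and lower from 249 to 902 in D1+ TGF-β vs D1 (the most without D1 replicate 2), genes called higher over time with TGF-β from 1073 to 2053, and those higher and lower for the difference of responses from 216 to 816 and from 333 to 903. Members called higher ran from 2 to 4 in D20+ TGF-β vs D20 and from 0 to 1 for the difference of responses. Members called lower ran from 1 to 2 in D20+ TGF-β vs D20, from 0 to 1 over time with TGF-β, from 0 to 1 in D20 vs D1 and from 3 to 5 for the difference of responses.

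The values that changed sign were the following. In D1+ TGF-β vs D1, P4HA3 was at 0.15 on the log2 scale with limma-voom and 0.93 without both libraries that stand apart, and from −0.56 to 0.93 with 1 library left out, the highest without D1 replicate 2. There LOXL1 was at 0.0048 with limma-voom and 0.0022 with limma on the log2 table, and from −0.27 to 0.13 with 1 library left out. In D20+ TGF-β vs D20, P4HA1 was from −0.018 to 0.16 with 1 library left out. Over time with TGF-β, SERPINH1 was at 0.016 without both libraries that stand apart and from −0.10 to 0.041 with 1 left out, LOX was at −0.011 with no gene filter, −0.011 with filterByExpr and −0.082 without both libraries, and from −0.073 to 0.093 with 1 left out, and LOXL2 was at −0.037 with no gene filter, −0.037 with filterByExpr, and from −0.062 to 0.060 with 1 left out. For the difference of responses, PLOD1 was from −0.062 to 0.11 and PLOD3 from −0.030 to 0.11 with 1 library left out.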
